A study of Mus musculus with 7 samples.

Results

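The microcephaly centrosome genes are 10 genes whose loss in people gives a small cerebral cortex and whose proteins work at the centrosome or the spindle pole. They were taken by name, as the probe sets of an Affymetrix gene array whose only gene symbol is one of Aspm, Wdr62, Nde1, Cdk5rap2, Mcph1, Cenpj, Stil, Cep152, Cep135 and Cep63. All 10 were measured, among 19938 genes in all. Cep63 had 2 such probe sets, of which the one with the higher mean over the arrays was used, and each other gene had 1. RNA came from cells of the C57BL/6 mouse cerebral cortex that were electroporated on embryonic day 13 and sorted 24 h later, at day 14, for the green fluorescent protein carried by the constructs. The 3 Trnp1 knockdown samples received a construct that lowers Trnp1, which encodes a nuclear protein of dividing cortical cells, and the 4 control samples are labelled as wild type. Both groups were electroporated and sorted alike, their sex was not determined, and the labels do not give the control construct, the sequence used for the knockdown or the number of embryos in a sample. P-values therefore measure the spread between these samples, which the labels call biological replicates. The comparison asks whether these genes differ in cortical cells 1 day after Trnp1 was lowered.

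The centrosome is the main organizer of microtubules in an animal cell and holds a pair of centrioles within pericentriolar material. It is copied once in each cell cycle and forms the poles of the mitotic spindle. In the embryonic cortex the radial glia divide at the ventricular surface with their spindle close to the plane of that surface, and the centrosome is also the base of their cilium. Cep63 and Cep152 form a ring around the old centriole, where Stil and Cenpj take part in building the new one, and Cep135 is part of the cartwheel and wall of the centriole. Cdk5rap2 anchors microtubule-nucleating complexes in the pericentriolar material, Aspm and Wdr62 sit at spindle poles, Nde1 links the motor dynein to Lis1, and Mcph1 restrains condensin II and entry into mitosis. Many genes of mitosis are transcribed in G2 and M phase through a CHR element and CCAAT boxes in their promoters.

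Promoter windows are shown for 4 members because the array-to-array pattern described further on differed among them. They are Aspm, with the widest spread over arrays; Stil, with the largest group difference; Cdk5rap2, with a narrower spread; and Cep152, the only member whose highest array was knockdown replicate 1. The windows run from 250 bases before the start of the gene to 50 bases after it, in RefSeq on GRCm38.p6, and 9 of the 10 members had at least 1 window there. Capitals mark the CHR letters TTTGAA, the CCAAT box and the E2F-like letters TTTNNCGC, each on either strand. In these windows no match of one motif overlapped a match of another. Aspm is on chr1:139454523-139454822 (plus strand), Stil on chr4:114999868-115000167 (plus strand), Cdk5rap2 on chr4:70410386-70410685 (minus strand) and Cep152 on chr2:125625064-125625363 (minus strand).
Aspm: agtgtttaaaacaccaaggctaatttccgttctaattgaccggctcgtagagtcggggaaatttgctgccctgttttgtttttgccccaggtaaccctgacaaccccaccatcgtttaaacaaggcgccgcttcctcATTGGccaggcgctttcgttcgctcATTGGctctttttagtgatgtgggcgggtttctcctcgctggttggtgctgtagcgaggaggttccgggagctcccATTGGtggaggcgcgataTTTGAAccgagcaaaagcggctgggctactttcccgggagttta
Stil: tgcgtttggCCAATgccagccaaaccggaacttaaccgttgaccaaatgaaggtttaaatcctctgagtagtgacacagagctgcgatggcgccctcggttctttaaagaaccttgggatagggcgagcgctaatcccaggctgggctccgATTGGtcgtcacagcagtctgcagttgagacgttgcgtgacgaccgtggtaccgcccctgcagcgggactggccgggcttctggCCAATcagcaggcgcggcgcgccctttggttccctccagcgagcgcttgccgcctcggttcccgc
Cdk5rap2: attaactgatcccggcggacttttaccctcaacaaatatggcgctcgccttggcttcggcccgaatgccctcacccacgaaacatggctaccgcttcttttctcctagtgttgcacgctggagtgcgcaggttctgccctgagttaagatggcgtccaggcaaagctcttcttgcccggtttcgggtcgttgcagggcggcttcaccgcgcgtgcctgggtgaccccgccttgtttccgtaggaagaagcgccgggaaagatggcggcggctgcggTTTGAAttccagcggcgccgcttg
Cep152: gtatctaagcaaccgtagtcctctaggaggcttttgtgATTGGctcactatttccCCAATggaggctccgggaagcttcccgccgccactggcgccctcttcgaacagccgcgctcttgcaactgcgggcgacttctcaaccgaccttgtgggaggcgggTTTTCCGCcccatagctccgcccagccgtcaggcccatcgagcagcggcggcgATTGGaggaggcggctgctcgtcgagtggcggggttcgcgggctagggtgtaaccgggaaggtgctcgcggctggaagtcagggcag
The letters TTTGAA stood in the windows of 2 members, Aspm and Cdk5rap2, where they began 6 and 26 bases after the start site. Of all 32851 promoter windows 17.9% held these letters, and of the 31 windows of the G2 and M phase genes described further on 77.4% did. A CCAAT box stood in the windows of 6 of the 9 members (Aspm, Cep152, Stil, Cep135, Wdr62 and Nde1), while 37.4% of all windows held one, as did 77.4% of the G2 and M phase windows. Aspm, Cep152, Stil and Wdr62 each had 3 such boxes in a window. The E2F-like letters were found for 3 members, Cep152, Wdr62 and Cep63, and in 5.2% of all windows. These matches are letters in a window, and no binding was measured in this study.

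The log2 level of Trnp1, which checks the labels, was 4.80, 4.85 and 4.55 in Trnp1 knockdown samples and 5.07, 4.999, 5.24 and 5.22 in controls. Every knockdown array was below every control array, and the difference was -0.40 (SE 0.12), a ratio of 0.758. Trnp1 did not pass over all genes (limma adjusted p = 0.825), and the groups failed to overlap for 5.67% of all genes. Its mean level was 4.96, where array medians ran from 4.40 to 4.61, and RMA compresses differences of dim probe sets. Over all 19938 genes, 0 passed limma's test at an adjusted p under 0.05, which is 0% of those tested, and 1158 (5.81%) had an unadjusted p under 0.05. Of the markers of the labelled tissue, the radial glia gene Fabp7 had log2 levels between 11.17 and 11.58 in knockdown samples and between 10.93 and 11.51 in controls, and the intermediate progenitor factor Eomes lay between 9.86 and 10.66 in knockdown samples and between 10.05 and 10.53 in controls. Of 15 radial glia markers 10 had a difference below 0, with a summed log2 level of 122.4 to 128.7 in knockdown samples and 121.5 to 130.4 in controls. Emx1 (-0.36, SE 0.12) and Prom1 (-0.47, SE 0.17) were without overlap between the groups, and Notch1 was at 0.55 (SE 0.24). Of 10 intermediate progenitor markers 8 were below 0 and 4 of them had an unadjusted p under 0.05, though none passed over all genes. Their summed log2 level was 78.83 to 79.82 in knockdown samples and 81.69 to 83.44 in controls, so that the groups did not overlap. The markers with the smallest p were Rasgef1b (-0.94, SE 0.21), Penk (-0.67, SE 0.18) and Sstr2 (-0.65, SE 0.20). The 2 brightest markers of this list, Eomes (-0.07, SE 0.22) and Neurog2 (0.02, SE 0.31), had differences near 0, so the list did not move as a whole. The part of these progenitors in the levels of the 10 genes was not tested. Marker levels of other cell types also differed between arrays. The choroid plexus gene Ttr was at 4.34, 11.98 and 4.20 in knockdown samples and at 4.05, 4.00, 9.86 and 12.55 in controls. By Ttr alone, knockdown replicate 2 and control replicates 3 and 4 stood apart from the rest. Folr1, another choroid plexus marker, was at 4.20, 5.26 and 4.38 in knockdown samples and at 4.23, 4.24, 4.14 and 7.86 in controls. Folr1, Aqp1 and Kl of the same list had their lowest level in control replicate 3.

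None of the 10 genes differed between Trnp1 knockdown and control samples beyond the spread of the arrays. The difference was below 0 for 8 members and above 0 for 2, Cep152 and Cep63, and the median of the 10 differences was -0.215 on the log2 scale, against -0.001 for all genes. Differences below 0 were found for 50.2% of all genes, and for 59.5% of the 10617 genes at least as bright as the dimmest member. No member passed over all genes (limma adjusted p between 0.825 and 0.989), none had an unadjusted p under 0.05, and in none did the groups fail to overlap, as they did for 5.67% of all genes. For 8 members the difference was smaller than the SD within groups. The direction rested on 1 array: without Trnp1 knockdown replicate 1 only 3 members were lower, Cdk5rap2, Cenpj and Stil, and the median was 0.16, while 51.7% of all genes were lower. Without knockdown replicate 2, 9 members were lower and the median was -0.41, with 48.8% of all genes lower. The 95% intervals of limma reached a 2-fold rise for none of the 10 members, and did not reach a 2-fold fall for 6 of them. In sorted bulk samples, fewer cells in a given phase or of a given type and less RNA per cell cannot be told apart.

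**Figure D1:**
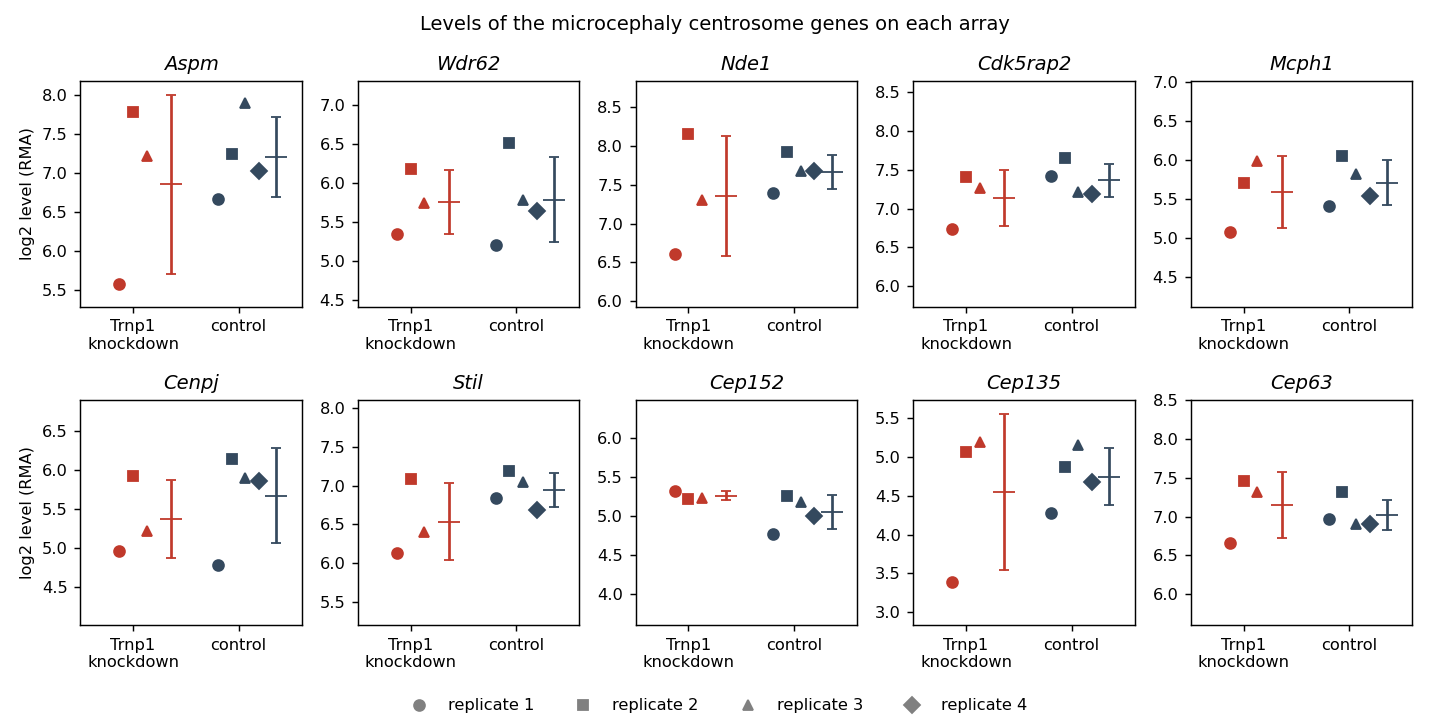
Log2 level (RMA) of each of the 10 genes on each array, with Trnp1 knockdown samples in red and control samples in dark blue; marker shapes give the replicate number, horizontal ticks the group mean and bars the SD (n = 3 and n = 4). All panels span the same number of log2 units, and the groups overlap for every gene, with knockdown replicate 1 the lowest of the 7 arrays for 7 of the 10.

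Aspm, which encodes the spindle pole protein altered most often in human primary microcephaly, spread most widely. Its log2 level was 5.57, 7.78 and 7.22 in Trnp1 knockdown samples, against 6.67, 7.25, 7.90 and 7.03 in controls. Knockdown replicate 1 lay below every control array, while the other knockdown arrays lay inside the control range. The span over the 7 arrays was 2.33 log2 units, or 5.03-fold, and the SD within groups (0.830) was larger than that of 97.2% of all genes. Aspm averaged 6.86 ± 1.15 (SD, n = 3) in knockdown samples and 7.21 ± 0.517 (SD, n = 4) in controls, a difference of -0.36 (SE 0.53, 95% interval -1.60 to 0.89). An exact permutation test (two-sided, all 35 ways to divide the arrays) gave p = 0.629 for Aspm, and its limma adjusted p was 0.91. Without knockdown replicate 1 the difference was 0.29, and without knockdown replicate 2 it was -0.82.

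Wdr62 encodes a spindle pole scaffold that works with Aspm and with the kinase Jnk. Its log2 level was 5.35, 6.18 and 5.75 in Trnp1 knockdown samples and 5.21, 6.52, 5.78 and 5.64 in controls. Here the lowest and the highest array were both controls, and every knockdown array lay between them. The difference of -0.03 (SE 0.33, 95% interval -0.79 to 0.73) was the smallest of the 10 (limma adjusted p = 0.989), and it was 0.18 without knockdown replicate 1, 0.22 without control replicate 2, and -0.24 and -0.22 without knockdown replicate 2 and control replicate 1.

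Nde1, whose product binds Lis1 and dynein and whose loss in people gives a severe microcephaly with few cortical folds, had log2 levels of 6.61, 8.16 and 7.30 in Trnp1 knockdown samples. The controls stood at 7.39, 7.92, 7.68 and 7.68. Nde1 had knockdown arrays on both sides of the control range, replicates 1 and 3 below all controls and replicate 2 above all of them. The group means were 7.36 ± 0.773 (SD, n = 3) in knockdown samples and 7.665 ± 0.218 (SD, n = 4) in controls. The difference was -0.31 (SE 0.34, 95% interval -1.10 to 0.48), with a limma adjusted p of 0.877 and p = 0.543 by the exact permutation test. Leaving out knockdown replicate 2 gave -0.71 (SE 0.24, limma adjusted p = 0.322), whereas leaving out knockdown replicate 1 gave 0.06.

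Cdk5rap2, the anchor of microtubule nucleation in the pericentriolar material, varied less. Its log2 level was 6.73, 7.40 and 7.27 in Trnp1 knockdown samples and 7.42, 7.65, 7.21 and 7.19 in controls, with only knockdown replicate 1 outside the control range. The difference was -0.23 (SE 0.20, 95% interval -0.69 to 0.23; limma adjusted p = 0.847), and it was -0.03 with knockdown replicate 1 left out, -0.37 with knockdown replicate 2 left out and -0.14 with control replicate 2 left out. Mcph1, which holds back condensin II and takes part in the DNA damage checkpoint, stood at 5.08, 5.70 and 5.99 in knockdown samples and at 5.41, 6.05, 5.83 and 5.54 in controls. Again knockdown replicate 1 was the lowest array and the other knockdown arrays lay inside the control range. Its difference was -0.12 (SE 0.25; limma adjusted p = 0.937), and it was 0.14 without knockdown replicate 1 and 0.00 without control replicate 2.

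The 5 members that act in centriole assembly did not share a direction. Stil, a regulator of the kinase Plk4 and of the cartwheel, had the largest difference of the 10. Its log2 level was 6.13, 7.08 and 6.40 in Trnp1 knockdown samples, against 6.84, 7.18, 7.05 and 6.69 in controls, so that knockdown replicates 1 and 3 lay below all controls and replicate 2 inside their range. Stil averaged 6.54 ± 0.491 (SD, n = 3) in knockdown samples and 6.94 ± 0.221 (SD, n = 4) in controls. The difference was -0.40 (SE 0.24, 95% interval -0.96 to 0.16), a ratio of 0.757 with an interval from 0.513 to 1.12. It did not pass (limma adjusted p = 0.825, exact permutation p = 0.2, where 35 divisions can give 0.0286 at the least). The sign held with each array left out in turn, from -0.67 (SE 0.18, limma adjusted p = 0.259) without knockdown replicate 2 to -0.20 without knockdown replicate 1.

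Cenpj, which sets the length of the growing centriole, stood at 4.96, 5.93 and 5.22 in Trnp1 knockdown samples and at 4.78, 6.14, 5.90 and 5.86 in controls. The lowest array was control replicate 1, and the other controls lay close together. The difference was -0.30 (SE 0.37; limma adjusted p = 0.89), and it was -0.60 without control replicate 1, -0.14 without control replicate 2, and -0.10 and -0.58 without knockdown replicates 1 and 2. Cep135 was the dimmest member, near the median of the arrays, where RMA compresses differences. Its levels were 3.39, 5.06 and 5.19 in knockdown samples and 4.27, 4.87, 5.15 and 4.68 in controls. Cep135 on knockdown replicate 1 lay far below all other arrays, and the difference of -0.20 (SE 0.45; limma adjusted p = 0.938) was 0.38 without that array.

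Cep152 and Cep63, whose products form a ring together, were the members with a difference above 0. Cep152 was at 5.33, 5.22 and 5.24 in Trnp1 knockdown samples and at 4.77, 5.27, 5.18 and 5.002 in controls. The knockdown arrays lay within 0.1 log2 units of each other, and control replicate 2 lay among them. Cep152 averaged 5.26 ± 0.0575 (SD, n = 3) in knockdown samples and 5.05 ± 0.218 (SD, n = 4) in controls, a difference of 0.21 (SE 0.14, 95% interval -0.12 to 0.54; limma adjusted p = 0.825). Knockdown replicate 1 was its highest array, and the difference stayed between 0.12 and 0.28 with each array left out in turn. Cep63 was at 6.66, 7.45 and 7.32 in knockdown samples and at 6.97, 7.31, 6.91 and 6.91 in controls, with 2 knockdown arrays above all controls and 1 below them. Its difference was 0.12 (SE 0.21; limma adjusted p = 0.92), with 0.36 and -0.04 when knockdown replicates 1 and 2 were left out in turn. The second Cep63 probe set was dim, with levels between 3.994 and 4.323, and differed by 0.11 (SE 0.11).

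**Figure D2:**
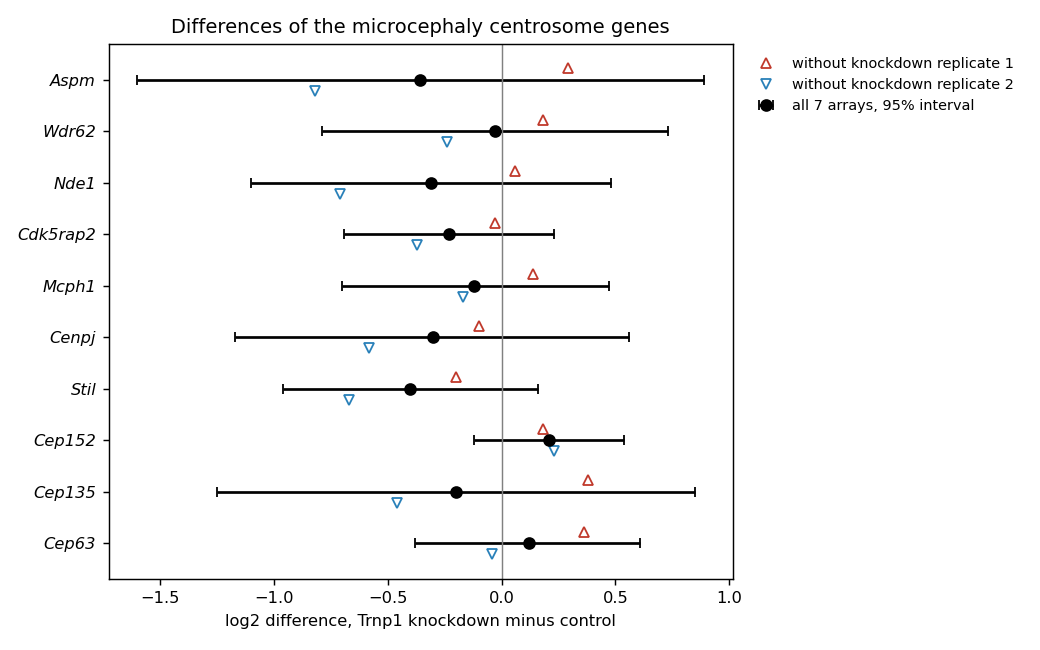
Log2 difference between Trnp1 knockdown and control samples for each of the 10 genes, with limma's 95% interval from all 7 arrays (black), and the same difference without knockdown replicate 1 (red triangles) and without knockdown replicate 2 (blue triangles). Every interval includes 0, and without knockdown replicate 1 the points of Aspm (0.29) and Cep135 (0.38) lie right of 0.

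Within each group the mean level of the 10 genes differed between arrays. Whether the members varied together more than other genes do was not tested. The mean deviation of the 10 genes from the control mean was -0.74, 0.28 and -0.03 log2 units in Trnp1 knockdown replicates 1 to 3, against -0.34, 0.30, 0.14 and -0.10 in control replicates 1 to 4. Knockdown replicate 1 was the lowest of the 7 arrays for 7 members, where it was lowest for 16.3% of all genes and for 20.8% of those at least as bright as the dimmest member. The other 3 members, Wdr62, Cenpj and Cep152, had their lowest level in control replicate 1. At the upper end, control replicate 2 was the highest array for 5 members, where it was highest for 12.6% of all genes, and knockdown replicate 2 was highest for 2 members. The SD was larger in knockdown samples than in controls for 7 of the 10 genes, as it was for 56.4% of all genes.

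The pair of arrays that was lowest for the members was also lowest for genes of mitosis, but the highest array differed. All 32 measured genes of a G2 and M phase list that holds no member had a difference below 0, with a median of -0.51, and 0 passed over all genes. Differences below 0 were found for 50.2% of all genes. In 27 of them knockdown replicate 1 was the lowest array, as it was for 16.3% of all genes and 20.8% of those at least as bright as the dimmest member. The mean deviation of this list was -1.14, 0.26 and -0.54 in Trnp1 knockdown samples and -0.59, 0.39, 0.45 and -0.25 in controls, so its lowest pair was knockdown replicate 1 and control replicate 1. Its highest array was control replicate 3, where the members stood at 0.14, and knockdown replicate 3 was low for this list but near 0 for the members. Leaving out knockdown replicate 1 gave 24 lower and a median of -0.17, and leaving out knockdown replicate 2 gave 32 and -0.85. Of all genes 51.7% and 48.8% were lower in these settings. The mitotic kinase Cdk1 had the smallest p of the list, with levels of 7.94, 8.63 and 7.35 in knockdown samples and 8.37, 9.18, 9.21 and 8.94 in controls (difference -0.95, SE 0.33). The spindle midzone protein Prc1 differed by -0.81 (SE 0.38) and the checkpoint kinase Ttk by -0.79 (SE 0.40). S phase genes were lower in 18 of 28 with a median of -0.09. The share lower, 64.3%, was near the 59.5% of genes at least as bright as the dimmest member. The median of the S phase list was 0.04 and 0.03 after further quantile and cyclic loess normalization. Leaving out control replicate 2 gave 11 lower and a median of 0.09, leaving out knockdown replicate 3 gave 13 and 0.01, and leaving out knockdown replicate 2 gave 23 and -0.27. The smallest p values of this list were those of the histone mRNA-binding protein Slbp (-0.39, SE 0.16), the helicase subunit Mcm5 (-0.38, SE 0.18) and the nuclease Fen1 (-0.50, SE 0.30). The mean deviation of the whole S phase list was -0.26, 0.22 and -0.31 in knockdown samples and -0.08, 0.43, 0.01 and -0.36 in controls. Control replicate 1 thus did not stand low for that list.

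**Figure D3:**
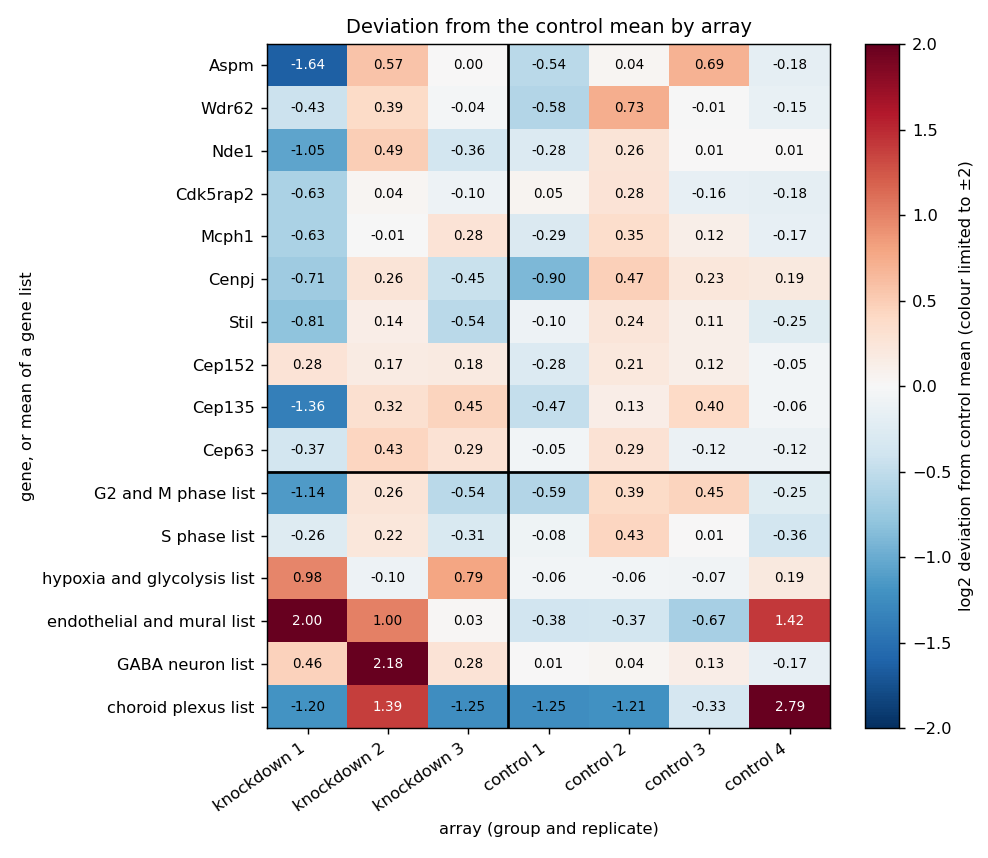
Deviation in log2 units from the control mean on each array, for the 10 genes (upper rows) and for the mean of 6 gene lists (lower rows), with Trnp1 knockdown arrays left of the line and control arrays right of it. Knockdown replicate 1 is at -1.64 for Aspm and at -1.14 for the G2 and M phase list, and at 0.28 for Cep152; its endothelial and mural list is at 2.00.

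Other lists also moved with knockdown replicate 1. Endothelial and mural markers were on average 2.00, 1.00 and 0.03 log2 units from the control mean in Trnp1 knockdown samples and -0.38, -0.37, -0.67 and 1.42 in controls. Of these 11 markers 10 had a difference above 0, none passed over all genes, and the summed log2 level ran from 55.2 to 76.9 in knockdown samples and from 47.45 to 70.5 in controls. Their defining gene Cdh5 was at 8.54, 7.53 and 5.89 in knockdown samples and at 5.06, 5.27, 3.83 and 8.37 in controls. Control replicate 4 thus lay between knockdown replicates 1 and 2 for this list, while the mean deviation of the microcephaly genes there was -0.10. Hypoxia and glycolysis genes deviated by 0.98, -0.10 and 0.79 in knockdown samples and by -0.06, -0.06, -0.07 and 0.19 in controls, and 20 of 22 had a difference above 0 with none passing over all genes. Over all genes 9926 of 19938 had a difference above 0. Without knockdown replicate 1, 6 genes of the list were lower instead of 2, and its median was 0.23 instead of 0.52. The oxygen sensor Egln3 (1.29, SE 0.40), the lactate transporter Slc16a3 (0.63, SE 0.22) and Bnip3 (1.17, SE 0.43) had the smallest p values there. Knockdown replicate 2, where the members were high, was the array with the highest level of GABA neuron markers. Their mean deviations were 0.46, 2.18 and 0.28 in knockdown samples and 0.01, 0.04, 0.13 and -0.17 in controls, with 7 of 7 markers above 0. Their summed log2 level was 32.45 to 45.75 in knockdown samples and 29.3 to 31.4 in controls. Dlx5 was at 6.31, 8.73 and 5.40 against 4.62, 4.73, 4.76 and 4.60. Dlx5, Gad2 and Slc32a1 were without overlap, as were 5.67% of all genes, and 0 markers passed over all genes. Without knockdown replicate 2, 2 markers were lower and the median was 0.31 instead of 1.07. Choroid plexus markers had a difference below 0 in 5 of 6, and their summed log2 level ran from 22.8 to 38.7 in knockdown samples and from 22.8 to 47.1 in controls. The part of these cells, and of hypoxia, in the levels of the microcephaly genes was not tested. Without knockdown replicate 2 and control replicate 4 together, a setting chosen after the data were seen, 9 members were lower, the median was -0.45 and 0 passed.

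The genes whose levels followed a member most closely were found by the root mean square distance between levels centred on their mean over the 7 arrays. For Aspm the nearest gene was Cenpe, a kinetochore motor that is itself a microcephaly gene, at 0.171 log2 units where Aspm's own spread by that measure was 0.723, and next came Cks2, a partner of cyclin-dependent kinases, at 0.222. Cenpe was at 6.22, 7.93 and 7.27 in Trnp1 knockdown samples and at 6.94, 7.54, 8.23 and 7.30 in controls, which is the order of the arrays for Aspm except that knockdown replicate 3 and control replicate 4 change places. Nde1 lay nearest to Cmss1 (0.076) and to the transcription factor Myb (0.102), Stil to Spata5 (0.055) and Pgp (0.078), and Cenpj to Cinp (0.069) and Timm13 (0.073). Mcph1 lay nearest to Relch (0.088) and to the microtubule-depolymerizing kinesin Kif2a (0.089), and Wdr62 to Hrob (0.105) and Gemin8 (0.13). For Cdk5rap2 these were Mrpl21 (0.05) and Ube2d2a (0.067), for Cep63 Fstl5 (0.074) and Ankrd2 (0.085), for Cep135 Exosc2 (0.173) and Thumpd3 (0.192), and for Cep152 Socs5 (0.035) and Lrrc30 (0.065). The search ran over 17068 genes and 7 arrays, and these distances carry no test. Among the members, Aspm and Cep135 were each other's nearest (0.244), as were Wdr62 and Cenpj (0.269) and Cdk5rap2 and Cep63 (0.183). Cep152 and Aspm were the farthest apart (0.746).

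The wider machinery of the centrosome was set beside the members. Of all genes at least as bright as the dimmest member, 59.5% had a difference below 0. With the dimmest 50% of genes left out, the median of all genes was -0.079. Counts and medians near these values are not results about a list. Of 21 other genes of centriole assembly 19 had a difference below 0 and 2 above, with a median of -0.24, and 18 were lower without knockdown replicate 1 (median -0.18). After further quantile or cyclic loess normalization 16 were lower. None passed over all genes, and 2 had an unadjusted p under 0.05, both lower, where 3.61% of all genes did so in that direction. These were Cep120, a partner of Cenpj, at 6.19, 6.61 and 6.38 in Trnp1 knockdown samples and 6.80, 6.84, 7.14 and 6.72 in controls (difference -0.48, SE 0.15), and Poc1b (difference -0.94, SE 0.30, and -0.69 to -1.11 with 1 array left out). In both genes all knockdown arrays lay below all controls, which was so for none of the 10 microcephaly genes. Over all genes the groups failed to overlap in 5.67%, so these counts are too small to set the list apart from the members. Poc1a differed by -0.32 (SE 0.16).

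Of 26 genes of the pericentriolar material and satellites 17 were lower and 9 higher, with a median of -0.085, and 0 passed. The share lower, 65.4%, was near the 59.5% of genes at least as bright as the dimmest member. With 1 array left out in turn the median ran from -0.209 (control replicate 1) to -0.04 (control replicate 2), with -0.158 for knockdown replicate 2 and -0.054 for control replicate 3. Mzt2, a small subunit of the gamma-tubulin complexes that Cdk5rap2 activates, was at 6.20, 6.78 and 6.45 in Trnp1 knockdown samples and at 7.01, 6.96, 7.01 and 7.09 in controls (difference -0.54, SE 0.15). Cep72, a satellite protein that helps to place Cdk5rap2 at the centrosome, differed by -0.52 (SE 0.18). Nin, or ninein, of the subdistal appendages, was higher, at 5.26, 5.20 and 5.87 in knockdown samples and 5.10, 4.79, 4.98 and 4.92 in controls (difference 0.50, SE 0.18, and 0.28 with knockdown replicate 3 left out). The groups did not overlap for these 3 genes and for Tubgcp6 (0.20, SE 0.11), which is 4 of the 26 where 5.67% of all genes were so, and limma's adjusted p was 0.825 for each of the 4. Tubgcp6, a subunit of the gamma-tubulin ring complex, was singled out after its values were seen.

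Among 24 partners of Nde1 in the dynein, dynactin and Lis1 system, 15 were lower and 9 higher. The share lower, 62.5%, was near the 59.5% of genes at least as bright as the dimmest member. The median of these partners was -0.12, with -0.219 without knockdown replicate 2 and -0.074 without control replicate 3. After further quantile and cyclic loess normalization 11 and 10 were lower and the medians were 0.02 and 0.02. The smallest p values were those of the dynactin subunit Dctn5 (-0.48, SE 0.18), the light chain Dynll1 (-0.42, SE 0.21) and Pafah1b2 (-0.51, SE 0.27). Of 28 genes of spindle poles and spindle orientation 21 were lower (median -0.21, and -0.06 without knockdown replicate 1). Mapk8, the kinase Jnk1 that acts with Wdr62, was at 7.99, 8.52 and 8.04 in Trnp1 knockdown samples and at 8.72, 8.88, 8.73 and 8.70 in controls (difference -0.57, SE 0.15), with no overlap. Huntingtin (Htt), which places dynein at the spindle, differed by 0.60 (SE 0.20), also with no overlap, and the spindle protein Hmmr by -1.28 (SE 0.62), with -0.87 and -1.95 when knockdown replicates 1 and 2 were left out in turn. Numa1, named here because its groups did not overlap, differed by -0.23 (SE 0.14). Of the 28 genes, 2 were lower and 1 higher with no overlap, where 5.67% of all genes did not overlap. None of the genes whose difference is given in this paragraph passed (limma adjusted p = 0.825 for each).

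Of 19 genes of the checkpoint and the condensins, with which Mcph1 acts, 15 were lower (median -0.25), and 10 without knockdown replicate 1 (median -0.02). The median was -0.079 with control replicate 2 left out. Brca1 was at -0.73 (SE 0.35, and at -0.28 with knockdown replicate 1 left out), the condensin II subunit Ncapg2 by -0.45 (SE 0.29, and -0.10 without it) and the checkpoint kinase Atr by 0.34 (SE 0.19, and 0.17 without knockdown replicate 2). Of 22 other microcephaly genes 16 were lower (median -0.105, with -0.001 and -0.192 when knockdown replicates 1 and 2 were left out, and -0.248, -0.037 and -0.067 for control replicates 1 to 3), and after further quantile or cyclic loess normalization 12 were. Phc1, a Polycomb subunit, differed by -0.30 (SE 0.17, and -0.13 without knockdown replicate 1), the spindle motor Kif11 by -0.61 (SE 0.45, and -0.04 without it), and Mfsd2a, a lipid transporter of brain endothelium, by 0.66 (SE 0.45, 0.35 without it and 1.02 without control replicate 4). In mice, loss of centrosome function in radial glia can activate p53 through Usp28 and Trp53bp1. Of 12 measured genes of that pathway and of p53 targets 8 were lower (median -0.18) and 0 passed. Leaving out control replicate 2 gave a median of -0.034, leaving out knockdown replicate 1 gave -0.094 and leaving out control replicate 3 gave -0.308. Trp53inp1 was at 8.10, 8.21 and 7.36 in Trnp1 knockdown samples and 8.79, 8.80, 8.45 and 8.81 in controls (difference -0.82, SE 0.22), with no overlap, while Mdm2 was at -0.36 (SE 0.22, and at -0.15 with knockdown replicate 3 left out) and Eda2r at -0.84 (SE 0.51, and -0.36 without control replicate 2). Trp53 and Cdkn1a were not analysed here.

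**Figure D4:**
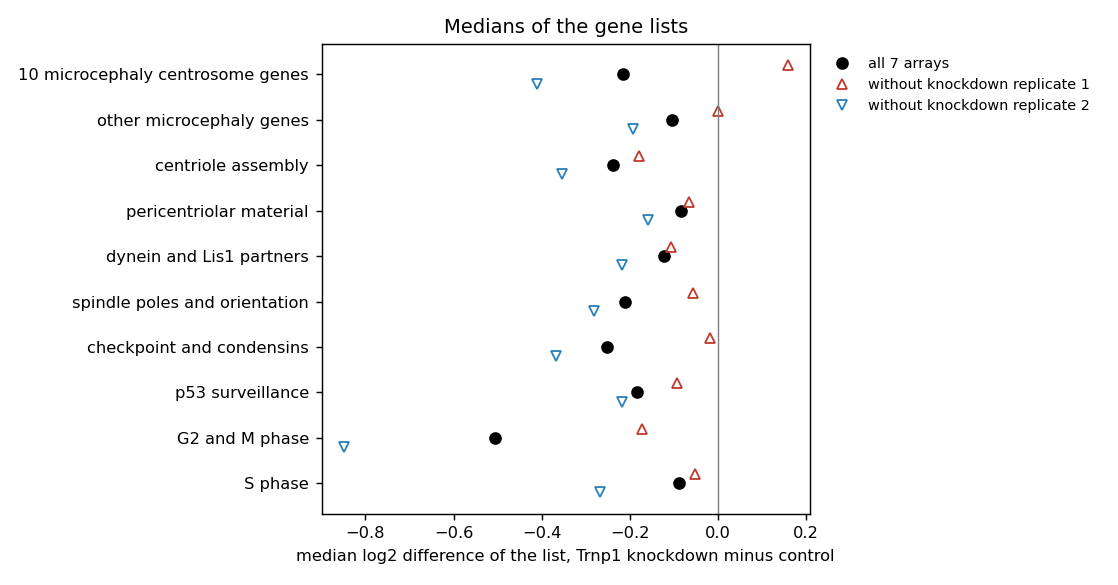
Median log2 difference between Trnp1 knockdown and control samples over the genes of each list, from all 7 arrays (black), without knockdown replicate 1 (red) and without knockdown replicate 2 (blue). The median of the 10 microcephaly centrosome genes is -0.215 from all arrays, 0.16 without knockdown replicate 1 and -0.41 without knockdown replicate 2, while the medians of the other 9 lists lie below 0 in all 3, with that of the other microcephaly genes at -0.001 without knockdown replicate 1.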

How the data were processed

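RNA was labelled after whole-transcriptome amplification, per the labels' protocols. The deposited log2 values come from RMA, run by the authors in Expression Console 1.2 from Affymetrix, per the submitters' processing notes; it equalizes brightness between arrays and compresses differences of dim probe sets. Of 35556 probe sets 21789 had 1 gene symbol in the array annotation, updated through Entrez identifiers in a RefSeq table of GRCm38.p6 (21698 matched). The probe set with the highest mean represented each gene. Groups were compared with limma 3.58.1 in R 4.3.3 (lmFit, eBayes, 2.36 prior and 5 residual degrees of freedom, no covariates), two-sided, with Benjamini-Hochberg adjustment over 19938 genes, and tested on simulated data. Arrays have no count depth, and their number limits the precision. No block was used; the alternatives tried are listed with their effect in the closing section.

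The 10 genes and all lists were chosen with earlier results of these data known. For each list described, named genes were drawn from those with the 3 smallest p and, for marker lists, the 2 brightest, and for each of the 10 genes its 2 nearest genes by centred levels, clone names and small RNAs passed over. Radial glia, intermediate progenitor, neuron, microglia, erythroid and meninges markers had 10 of 15, 8 of 10, 7 of 12, 0 of 10, 1 of 5 and 2 of 8 genes lower. Of the neuron markers 3 were lower and 1 higher without overlap, against 5.67% of all genes without overlap. The smallest p were those of Neurod6 (-0.71, SE 0.13), Neurod2 (-0.59, SE 0.16) and Syt1 (1.12, SE 0.31), with a limma adjusted p of 0.825 for each. The part of neurons in the levels of the 10 genes was not tested.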

Additional observations from a re-analysis of the deposited data

Results flagged for a closer look

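Among the 4 control arrays, Cep63 in control replicate 2 stood apart from the others: its level of 7.31, against 6.91 to 6.97 in the rest, left a gap of 0.836 of the group's range, above Dixon's critical value for 4 samples. Chance flags about 1 in 20 such groups, and 11 genes were tested, Trnp1 included. In Trnp1 knockdown samples Cep63 was at 6.66, 7.45 and 7.32, and without control replicate 2 its difference was 0.21.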

How the results depend on the processing

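With 1 array left out in turn, the log2 difference ranged from -0.82 to 0.29 for Aspm, from -0.32 to 0.14 for Mcph1, from -0.24 to 0.22 for Wdr62, from -0.52 to 0.38 for Cep135, from -0.71 to 0.06 for Nde1 and from -0.04 to 0.36 for Cep63, and these 6 changed sign. Stil, Cenpj, Cdk5rap2 and Cep152 kept theirs, as did Trnp1 (from -0.46 to -0.31). The number of the 10 genes that were lower ranged from 3 without knockdown replicate 1 to 9 without knockdown replicate 2 (6 without control replicate 2), and their median from -0.41 to 0.158; having 7 arrays limits all of these. Without knockdown replicate 2 and control replicate 4 together, an alternative chosen after the data were seen, Cep63 was at -0.08. Array weights, a robust prior, an intensity trend, equal medians of the arrays, further quantile and cyclic loess normalization, the dimmest 25% left out and the mean over probe sets left 8 genes lower, but their sizes moved: the median was -0.366 with array weights (Aspm -0.62), -0.151 and -0.152 after quantile and cyclic loess normalization (Cdk5rap2 -0.12 after both, Nde1 -0.19 and -0.18) and -0.281 with equal medians. Leaving out the dimmest 50% removed Cep135, and 7 of 9 were lower. With the replicate number as a block over replicates 1 to 3, 8 were lower with a median of -0.229. Stil then had an unadjusted p of 0.0445 by limma (adjusted p = 0.665, difference -0.49). The labels do not say that the numbers mark a shared litter or day, and the deviations of same-numbered arrays from their group means correlated over genes by 0.028, -0.051 and 0.072, so the pairing is by number only; 1 of the 3 knockdown arrays correlated best with its own number, and the block left the count of calls at 0. Equal array medians moved the median of all genes to -0.07. No gene passed over all genes under any of these settings by limma, at an adjusted p under 0.1, or with every probe set on its own; at an unadjusted p under 0.05 there were 439 higher and 719 lower, with 473 and 564 after quantile normalization, 503 and 522 after cyclic loess, 231 and 1033 with equal medians, 182 and 477 with the dimmest 50% left out, and 882 and 1522 with knockdown replicate 2 left out. For Stil, the smallest adjusted p of the 10 genes was 0.825 with all arrays, 0.259 when knockdown replicate 2 was left out and 0.243 in the alternative chosen after the data were seen.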
